A study of Mus musculus with 8 samples.

Results

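The glutathione S-transferases of mouse liver were examined in livers of ISOGK-treated and vehicle-treated mice, through the 10 rows of the deposited count table whose symbols are Gstm1, Gstm2, Gstm3, Gstm4, Gstm6, Gsta2, Gsta3, Gsta4, Gstp1 and Gstt1, of 16540 rows in all. The genes were chosen by their counts in this same comparison, listed by name once its outcome was known, so their differences between the groups are given as a description, without a p-value for any of the 10. All 10 passed the filter on low counts, which left 12307 genes for testing, and the rule that lists them has no threshold on a measured value.

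ISOGK (isoginkgetin) is a biflavonoid of Ginkgo biloba that the study examined as an inhibitor of ATP-citrate lyase, the enzyme that makes cytosolic acetyl-CoA. All 8 mice were Apoe-/-, which lack the apolipoprotein that clears lipoprotein remnants, and all were on a Western diet. The ISOGK group of 4 mice received 20 mg/kg/day by intraperitoneal injection for 8 weeks, and the vehicle group of 4 mice received the solvent, DMSO in the column names, over the same time. The comparison asks which liver transcripts differed after the compound, with 1 RNA sequencing library per mouse. The sex and age of these mice are not given in the sources used here, and in all 8 libraries each of 4 Y-linked rows (Ddx3y, Eif2s3y, Kdm5d and Uty) held 109 to 671 counts. The Apoe row held 3252 to 6489 counts in every library, and a count per gene does not show which exons those reads came from. That the numbered samples are separate mice is read from the titles, and every SD below is the spread between those samples. The SE of a log2 fold change comes from the fitted model, as given under processing.

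Total counts per library ranged from 19605286 to 24461854 in the vehicle group and from 17457106 to 21626399 in the ISOGK group. Levels are given as CPM, counts relative to the library's total, as scaled with edgeR's TMM factors. No 2 libraries of a group agreed within counting noise. Hepatocyte markers (Alb, Ttr, Apoa1, Serpina1a, Tat and Cps1) summed to 142186 to 154393 CPM with vehicle and to 130317 to 167619 CPM with ISOGK, with 0 of 6 passing the test, as the tissue label says liver. In whole liver, fewer cells of a type and less RNA per cell cannot be told apart.

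Glutathione S-transferases join the thiol of the tripeptide glutathione to electrophilic compounds, which makes drugs, toxins and products of lipid peroxidation more soluble and ready for export. The cytosolic enzymes work as dimers and fall into classes named by Greek letters, of which alpha (Gsta), mu (Gstm), pi (Gstp) and theta (Gstt) are abundant in liver. The genes are known targets of the stress factor NRF2, which binds antioxidant response elements, and of the xenobiotic receptors CAR and PXR, and their levels in rodent liver differ between the sexes and along the axis from portal to central vein.

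The 5 mu-class genes lie side by side on the minus strand of chromosome 3 (GRCm38, GENCODE M21), from Gstm6 at 107938847 to 107943749 through Gstm3 at 107963696 to 107969283, Gstm2 at 107981702 to 107986453 and Gstm1 at 108012255 to 108017973 to Gstm4 at 108040408 to 108044894. Gsta4 and Gsta2 lie on chromosome 9, at 78182774 to 78209349 and 78331018 to 78355788. Gsta3 is on chromosome 1 at 21240589 to 21265661, Gstp1 on chromosome 19 at 4035407 to 4037985 and Gstt1 on chromosome 10 at 75783813 to 75798584. The 250 bases before the start site are shown for the gene with the deepest fall (Gstm3), the most abundant mu and alpha genes (Gstm1 and Gsta3) and the only member that was higher with ISOGK (Gstp1). They come from RefSeq (GRCm38.p6), read 5′ to 3′ on the gene's own strand, with any match to the 4 motifs searched in capitals. Gstm1 has more than 1 RefSeq start, and the window shown is the one with a match.
Gstm3, chr3:107969175-107969424, minus strand: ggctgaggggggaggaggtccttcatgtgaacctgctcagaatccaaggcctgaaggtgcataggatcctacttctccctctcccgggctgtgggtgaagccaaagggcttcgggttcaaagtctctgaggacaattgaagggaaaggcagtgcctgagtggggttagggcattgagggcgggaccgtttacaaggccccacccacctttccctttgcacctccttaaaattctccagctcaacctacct
Gstm1, chr3:108017819-108018068, minus strand: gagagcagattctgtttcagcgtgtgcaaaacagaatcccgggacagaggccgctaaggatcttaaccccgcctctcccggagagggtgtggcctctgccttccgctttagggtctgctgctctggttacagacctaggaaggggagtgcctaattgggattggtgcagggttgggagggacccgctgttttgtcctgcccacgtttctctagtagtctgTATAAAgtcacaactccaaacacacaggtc
Gsta3, chr1:21240335-21240584, plus strand: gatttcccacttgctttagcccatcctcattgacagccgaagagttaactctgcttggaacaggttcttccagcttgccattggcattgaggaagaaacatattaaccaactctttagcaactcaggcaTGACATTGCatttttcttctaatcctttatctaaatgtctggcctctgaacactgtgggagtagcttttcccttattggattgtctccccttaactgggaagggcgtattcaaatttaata
Gstp1, chr19:4037913-4038162, minus strand: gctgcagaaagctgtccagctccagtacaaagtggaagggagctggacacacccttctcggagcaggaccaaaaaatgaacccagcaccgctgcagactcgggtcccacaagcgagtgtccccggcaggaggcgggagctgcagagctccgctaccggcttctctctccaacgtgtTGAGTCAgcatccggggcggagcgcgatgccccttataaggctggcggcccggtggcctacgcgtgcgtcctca

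The motifs were searched on both strands in the 250 bases before and 50 bases after each start, and 9 of the 10 genes had an entry, Gsta4 being the exception. The core of the antioxidant response element, TGACNNNGC, matched 1 of the 9 genes, Gsta3 (TGACATTGC, from base -121 to base -113 before the start), and 12.4% of all 32851 RefSeq windows of this length. The AP-1 letters TGACTCA, which can lie inside a longer antioxidant response element, matched only Gstp1 among the 9, read as TGAGTCA on the gene's strand at bases -74 to -68, and 5.2% of all windows. The TATA letters TATAAA matched Gstm1 and Gsta2 and 13.6% of all windows, and the letters of the xenobiotic response element, TNGCGTG, matched Gsta2 and 5.07% of all windows. In the Gstm3 windows none of the 4 motifs matched. Such a match is a description of the letters and not a binding site.

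In vehicle-treated liver, the order of transcript abundance per kilobase of exon was led by Gstp1, with 912 CPM per kb, before Gstm1 with 691 and Gsta3 with 478. Gstt1 followed with 108 CPM per kb, Gstm6 with 44.3, Gstm2 with 32.9, Gsta4 with 30.5, Gstm3 with 20.3, Gstm4 with 18.0 and Gsta2 with 13.4. Gstp1 was above Gstm1, Gsta3 above Gstt1 and Gstt1 above Gstm6 with no overlap between the ranges over mice, whereas the ranges of Gstm1 and Gsta3 overlapped, as did those of every neighbouring pair from Gstm6 down to Gsta2. With ISOGK the order of the first 7 was the same, led by Gstp1 with 1355 CPM per kb, Gstm1 with 481 and Gsta3 with 307. Gstm3 took the last place with 4.17 CPM per kb, below Gsta2 with 10.3, and these ranges did not overlap.

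Between the groups, 9 of the 10 genes had a log2 fold change below 0 with ISOGK, beside 49.8% of all genes tested, and 1, Gstp1, was above 0. In edgeR's quasi-likelihood test over all 12307 genes, 6 of the 10 passed an adjusted p of 0.05 (Gstm1, Gstm3, Gstm6, Gsta3 and Gsta4 lower, Gstp1 higher), beside 7.55% of all genes tested (3.44% lower and 4.11% higher). Since the genes were listed with this comparison known, nothing is read from that excess. Their median log2 fold change was -0.47, beside 0.0018 over all genes tested. Only Gstm3 also passed an absolute log2 fold change of 1, a criterion met by 1.63% of all genes, 0.626% in the lower direction. The groups did not overlap for 4 genes that were lower (Gstm3, Gstm6, Gsta3 and Gsta4) and for Gstp1, beside 7.36% and 7.92% of all genes. The calls rested on the full set of mice. Without vehicle mouse 2, vehicle mouse 3, vehicle mouse 4 or ISOGK mouse 1, only 2 of the 10, Gstm3 and Gstm6, passed, and without each of the other 4 mice 5 passed.

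**Figure D1:**
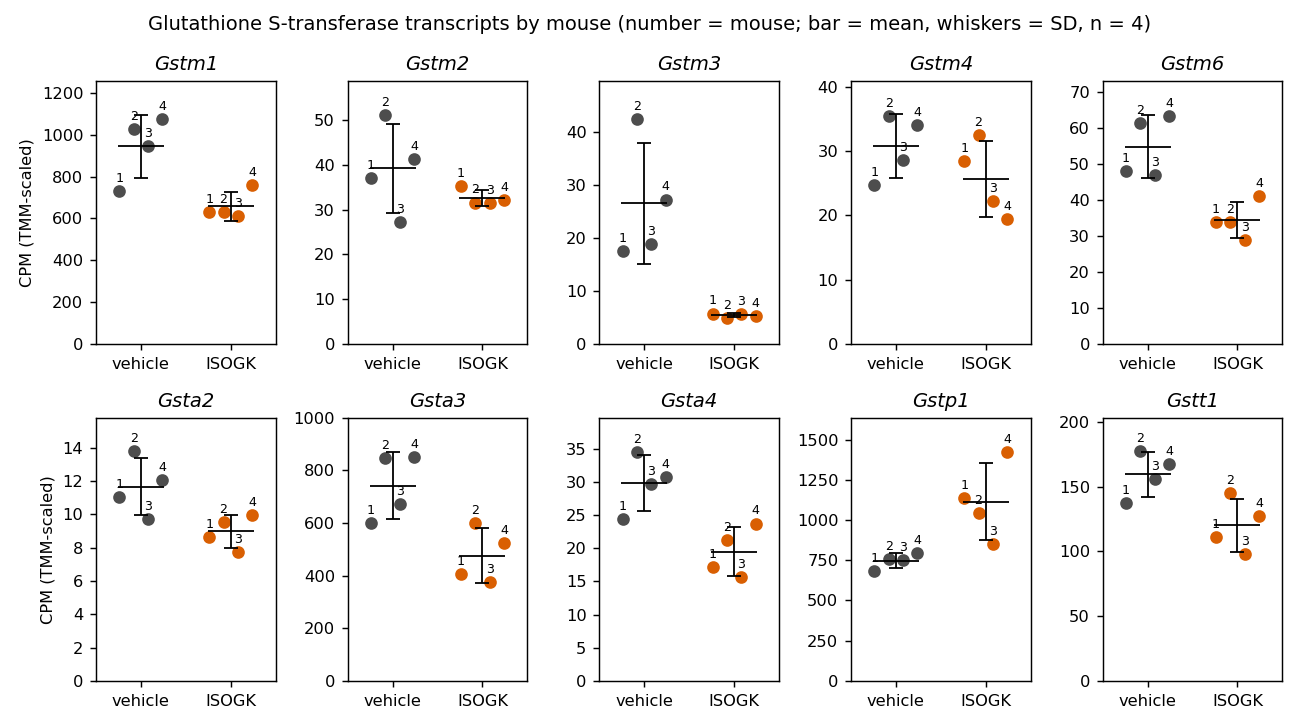
Level of each of the 10 glutathione S-transferase transcripts in each mouse, as CPM scaled with TMM factors on a linear axis from 0. Points are mice, numbered 1 to 4 in each group, the long bar is the mean and the whiskers are the SD (n = 4). The Gstm3 points of the ISOGK group lie between 5.01 and 5.79 CPM, below all vehicle points, and those of Gstp1 lie above all vehicle points.

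Of the mu class, which prefers aromatic and epoxide substrates, Gstm3 had the largest difference among the 10. It was at 17.7, 42.4, 18.9 and 27.3 CPM in vehicle mice 1 to 4 and at 5.79, 5.01, 5.71 and 5.34 CPM in ISOGK mice 1 to 4, which rest on 352 to 1073 and on 95 to 118 counts. Every ISOGK mouse was below every vehicle mouse, and the ISOGK mice lay close together (coefficient of variation 6.54%, n = 4) while the vehicle mice were spread widely (42.9%, n = 4). The mean ratio was 0.206 and the log2 fold change -2.28 ± 0.27 (SE). Without vehicle mouse 2, the highest, the log2 fold change was -1.96.

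Gstm1, the major mu transferase of these livers, was at 733, 1029, 943 and 1074 CPM in vehicle mice 1 to 4 and at 631, 628, 610 and 760 CPM in ISOGK mice 1 to 4. The groups met, as ISOGK mouse 4 stood above vehicle mouse 1, and the log2 fold change was -0.52 ± 0.13. Gstm6, a minor mu transferase, was at 48.0, 61.4, 46.8 and 63.2 CPM with vehicle and at 33.9, 33.9, 29.0 and 41.2 CPM with ISOGK. All 4 ISOGK mice were below all vehicle mice for Gstm6, with a log2 fold change of -0.67 ± 0.13. Gstm1 lost its call without vehicle mouse 2, 3 or 4 or ISOGK mouse 1 or 2, while Gstm3 and Gstm6 passed under all 16 alternatives.

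The remaining mu genes did not pass. Gstm2 ranged from 27.3 to 51.1 CPM with vehicle and from 31.4 to 35.2 CPM with ISOGK. Its ISOGK range lay inside the vehicle range, and its log2 fold change was -0.26 ± 0.16. Gstm4 ranged from 24.8 to 35.5 CPM and from 19.4 to 32.5 CPM, with a log2 fold change of -0.26 ± 0.17, and its groups overlapped. Neither passed under any of the 16 alternatives. The 5 mu genes thus spanned log2 fold changes from -2.28 to -0.26, and Gstm5, at the edge of the same cluster on chromosome 3, had -0.04 ± 0.25.

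Of the alpha class, Gsta3, which in mice detoxifies the epoxide of aflatoxin, was the most abundant. It was at 599, 847, 673 and 850 CPM in vehicle mice 1 to 4 and at 405, 599, 376 and 525 CPM in ISOGK mice 1 to 4. The highest ISOGK mouse and the lowest vehicle mouse were nearly level, at 598.7 and 599.4 CPM, so the groups were separate by a margin far smaller than their SDs of 104.0 and 126 CPM. The log2 fold change was -0.64 ± 0.16.

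Gsta4, which conjugates hydroxynonenal and related aldehydes of lipid peroxidation, was at 24.4, 34.5, 29.8 and 30.7 CPM with vehicle and at 17.2, 21.3, 15.7 and 23.7 CPM with ISOGK. Its highest ISOGK mouse lay just below its lowest vehicle mouse, and the log2 fold change was -0.62 ± 0.14. Gsta2 was low in both groups, at 9.74 to 13.8 CPM with vehicle and 7.75 to 9.95 CPM with ISOGK, with overlapping groups and a log2 fold change of -0.38 ± 0.14. Gsta2 did not pass with all 8 mice and passed only with scaling by library size alone. Gsta3 was no longer called without vehicle mouse 2, 3 or 4 or ISOGK mouse 1, 3 or 4, nor was Gsta4 without vehicle mouse 2, 3 or 4 or ISOGK mouse 1.

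Gstp1, the pi-class enzyme, which also conjugates many drug metabolites, moved the opposite way. It was at 684, 759, 754 and 796 CPM in vehicle mice 1 to 4 and at 1136, 1041, 849 and 1424 CPM in ISOGK mice 1 to 4. Every ISOGK mouse was above every vehicle mouse, with a wider spread in the ISOGK group (coefficient of variation 21.5% against 6.26%, n = 4 each). The mean ratio was 1.49 and the log2 fold change 0.57 ± 0.14. The call was lost under scaling by library size alone (log2 fold change 0.43) and without any 1 vehicle mouse, ISOGK mouse 1 or ISOGK mouse 2, while the sign stayed positive in all 16 alternatives.

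Gstt1, the theta-class enzyme, which acts on small halogenated compounds, was at 137, 177, 156 and 167 CPM in vehicle mice and at 111, 145, 97.6 and 127 CPM in ISOGK mice. Only ISOGK mouse 2 reached into the vehicle range. The log2 fold change was -0.41 ± 0.13, and Gstt1 passed in 4 of the 16 alternatives but not with all 8 mice.

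**Figure D2:**
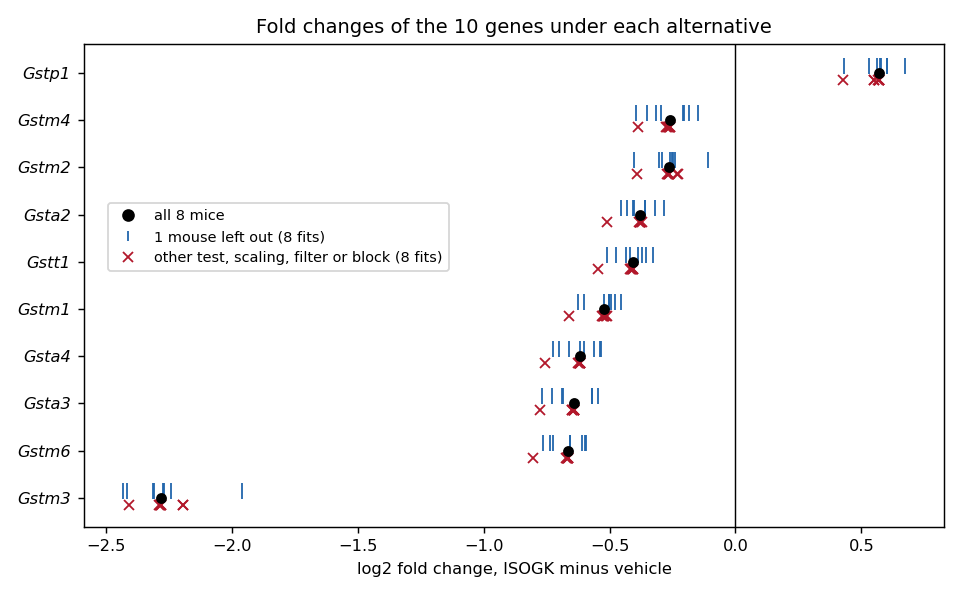
Log2 fold change (ISOGK minus vehicle) of each of the 10 genes with all 8 mice (black point), with each mouse left out in turn (blue ticks) and under 8 other settings of test, scaling, filter or replicate block (red crosses). Every value stays on its gene's side of 0, and the widest spread is that of Gstm3, up to -1.96 without vehicle mouse 2.

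Within a group the genes tended to be high or low in the same mice. Vehicle mouse 1 had the lowest value of its group for 7 of the 10 genes, and vehicle mice 2 and 4 shared the highest values, for 6 and 4 genes. In the ISOGK group, mouse 3 was the lowest for 8 of the 10 genes and mouse 4 the highest for 5. Vehicle mouse 1 and ISOGK mouse 3 also had the fewest total counts of their groups, 19605286 and 17457106, and the part of depth in these values was not tested. Gstm4 was lowest in ISOGK mouse 4, in which Gstm1, Gstm6, Gsta2, Gsta4 and Gstp1 were highest.

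Counts were summed over all rows of a class, since such a sum does not change when reads are moved between those rows, although it can change with reads dropped or assigned to pseudogenes outside them. The mu class (7 rows) went from 1147 ± 180 CPM (SD, n = 4) with vehicle to 794 ± 71.0 CPM with ISOGK, the alpha class (4 rows) from 785 ± 131 to 506 ± 108 CPM and the pi class (3 rows) from 756 ± 48.2 to 1120 ± 243 CPM. The groups did not overlap in any of the 3 sums. The theta class (4 rows) went from 216 ± 23.3 to 172 ± 21.9 CPM, with overlapping groups. Without Gstp1 the other 9 genes summed to 2039 ± 320 CPM with vehicle and 1381 ± 171 CPM with ISOGK, whereas all 10 summed to 2788 ± 363 and 2493 ± 381 CPM, with overlapping groups. Directions were the same with library size scaling.

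Taken per kilobase of exon, the 10 genes formed a pool whose makeup differed between the groups. Gstp1 made up 42.0%, 36.4%, 40.3% and 37.5% of the pool in vehicle mice 1 to 4 and 60.5%, 54.6%, 55.0% and 61.4% in ISOGK mice 1 to 4. Gstm1 accounted for 29.3% ± 1.56 (SD, n = 4) of the vehicle pool and for 20.9% ± 1.93 of the ISOGK pool, and Gsta3 for 20.3% ± 1.23 and 13.2% ± 2.34. These shares did not overlap between the groups.

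**Figure D3:**
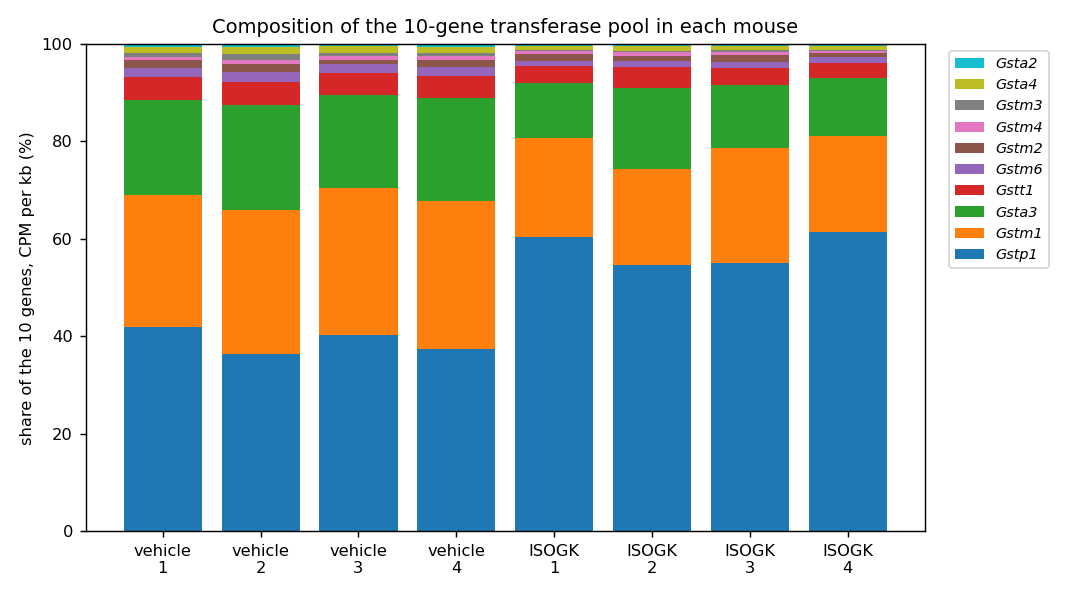
Share of each gene in the summed CPM per kilobase of the 10 transferase genes, as a stacked bar from 0 to 100% for each of the 8 mice. Gstp1, at the base, takes 36.4% to 42.0% in vehicle mice and 54.6% to 61.4% in ISOGK mice, and Gstm1 and Gsta3 above it are narrower in the ISOGK mice.

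Ratios of raw counts within a library do not depend on scaling. The ratio of Gstp1 to Gstm1 counts was 0.933, 0.738, 0.799 and 0.742 in vehicle mice 1 to 4 and 1.80, 1.66, 1.39 and 1.87 in ISOGK mice 1 to 4. Gstp1 had fewer counts than Gstm1 in all vehicle mice and more in all ISOGK mice. The ratio of Gstp1 to Gsta3 went from between 0.896 and 1.14 to between 1.74 and 2.80, and that of Gstm3 to Gstm1 from between 0.020 and 0.041 to between 0.007 and 0.009, neither with overlap. In contrast, the ratios of Gsta3, Gstm6 and Gstt1 to Gstm1 overlapped between the groups.

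The 10 genes differ in how well reads can tell them apart. In the principal GENCODE transcript of each, all 50-base stretches were found in no other gene for Gstm4, Gsta3, Gsta4 and Gstt1, and the share was 90.6% for Gstm2, 88.2% for Gstm6, 76.9% for Gstm1 and 71.2% for Gstm3. Gstm1 shared 17.3% of its stretches with the pseudogene Gstm2-ps1, and Gstm3 shared 16.0% with the pseudogene Gm8834. For Gstp1 only 37.7% were its own, since 62.3% were shared with Gstp2, and for Gsta2 35.8%, with 44.8% shared with Gsta1. The coding sequences of Gstp1 and Gstp2 were 98.1% identical and those of Gsta2 and Gsta1 97.6%, against 79.1% to 89.4% among the 5 mu genes and 46.6% to 53.9% between classes. How reads that match several genes were counted is not given in the sources used here, so the split between Gstp1 and Gstp2 and between Gsta2 and Gsta1 is uncertain. Gstp2 held 20 to 149 counts per library and Gsta1 7 to 28, beside 13635 to 27178 for Gstp1 and 137 to 349 for Gsta2.

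The table held 19 further rows of the wider superfamily, of which 15 could be tested. In the same edgeR test 3 of these fell and 1 rose, 4 of 15 beside 7.55% of all genes, with a median log2 fold change of 0.06. Mgst3, a microsomal membrane transferase that also acts on lipid peroxides, fell from 8.96 ± 2.18 CPM (SD, n = 4) with vehicle to 3.89 ± 0.94 CPM with ISOGK, which is a log2 fold change of -1.20 ± 0.22 (adjusted p = 0.0073, edgeR), with no overlap. Gstt3, the theta-class neighbour of Gstt1 on chromosome 10, went from 38.4 ± 4.49 CPM down to 26.3 ± 2.38 CPM (log2 fold change -0.55 ± 0.11, adjusted p = 0.0106, edgeR), also with no overlap. Both passed under all 16 alternatives.

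Gstm7, the mu gene next to Gstm6, fell from 44.8 ± 7.44 CPM with vehicle to 31.8 ± 3.44 CPM (log2 fold change -0.50 ± 0.13, adjusted p = 0.0374, edgeR), with overlapping groups. Its call was lost without vehicle mouse 1, 2 or 4 or ISOGK mouse 1 or 4, with log2 fold changes between -0.62 and -0.41 over the alternatives. Mgst1, the abundant microsomal transferase that protects membranes, rose from 1649 ± 115 CPM with vehicle to 2521 ± 535 CPM (log2 fold change 0.61 ± 0.15, adjusted p = 0.0277, edgeR). The lowest ISOGK mouse, at 1782 CPM, was just within the vehicle range up to 1796 CPM, and the call was lost without any 1 vehicle mouse or ISOGK mouse 2 or 4. Of the 15, only 2 passed without vehicle mouse 1, 2 or 4 or ISOGK mouse 4.

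The other 11 did not pass. Gstt2, a theta gene, had a log2 fold change of 0.46 ± 0.15 (adjusted p = 0.0826, edgeR) and passed only without ISOGK mouse 3. Gsto1, an omega-class thioltransferase, was at 68.7 ± 6.09 and 81.0 ± 4.72 CPM (adjusted p = 0.142, edgeR) and Gstk1, the mitochondrial and peroxisomal kappa transferase, at 77.5 ± 6.03 and 88.4 ± 4.20 CPM (adjusted p = 0.21, edgeR), the latter with no overlap. Gstz1, which isomerizes maleylacetoacetate in tyrosine breakdown, had a log2 fold change of 0.06 ± 0.12 (adjusted p = 0.807, edgeR), whose sign turned with library size scaling. Gstm5, Gstp2, Gstp3, Gsta1, Gstcd, Hpgds and Alox5ap had levels under 10 CPM and log2 fold changes from -0.48 to 0.60, with adjusted p from 0.214 to 0.939 (edgeR).

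**Figure D4:**
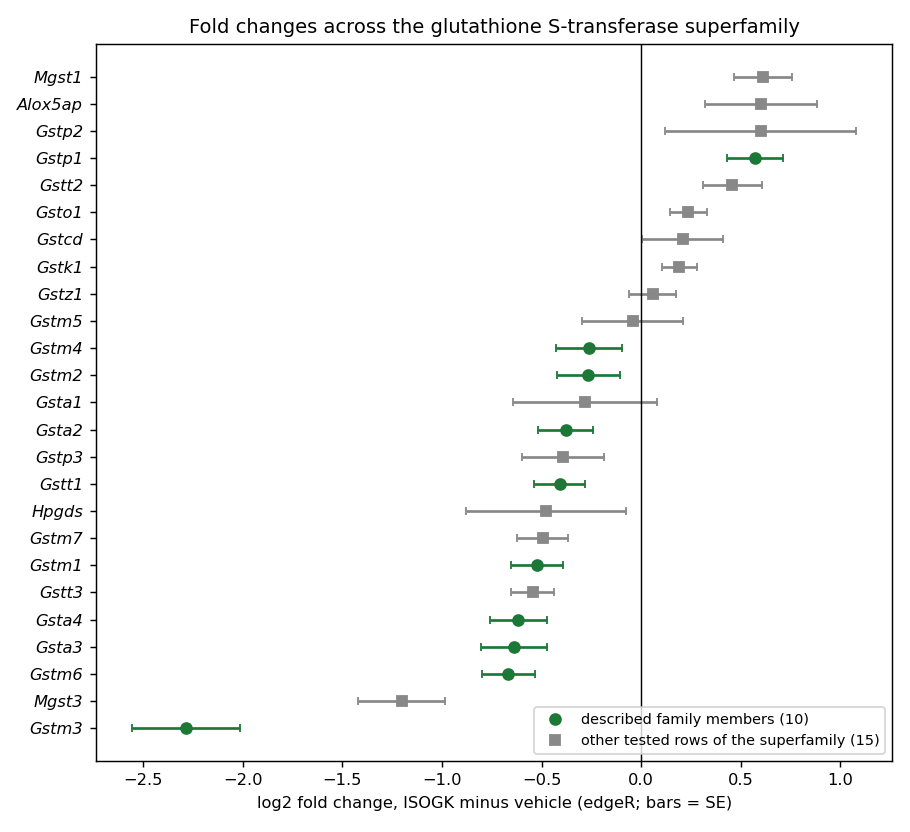
Log2 fold change (ISOGK minus vehicle, edgeR) with its SE for the 10 described genes (green circles) and the 15 other tested rows of the superfamily (grey squares), sorted by value. Gstm3 at -2.28 and Mgst3 at -1.20 lie lowest, and Mgst1, Alox5ap, Gstp2 and Gstp1 lie highest, near 0.6.

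Most of the called genes that make, carry and regenerate glutathione were higher with ISOGK. Of 18 tested genes on a list of 19, 6 rose and 1 fell, beside 7.55% of all genes called. This list and the other gene lists of this report were chosen with earlier results of these data known. Nothing is therefore read from an excess of calls in any of them. Mat1a, which makes S-adenosylmethionine and so feeds the path to cysteine, rose from 5958 ± 722 CPM to 13402 ± 1755 CPM (log2 fold change 1.17 ± 0.13, adjusted p = 0.000726, edgeR). Ahcy, the next step but one on that path, rose by a log2 fold change of 0.46 ± 0.10 (adjusted p = 0.0152, edgeR), and Oplah, which returns oxoproline to glutamate, by 0.87 ± 0.13 (adjusted p = 0.0024, edgeR). Gsr, the reductase that regenerates glutathione, rose from 54.7 ± 3.46 to 74.3 ± 6.57 CPM (log2 fold change 0.44 ± 0.09, adjusted p = 0.0154, edgeR). The mitochondrial carriers Slc25a39 and Slc25a10 rose by 0.55 ± 0.11 and 0.54 ± 0.13 (adjusted p = 0.0116 and 0.0288, edgeR).

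Chac2, which degrades glutathione, fell from 15.4 ± 1.48 to 9.98 ± 2.06 CPM (log2 fold change -0.63 ± 0.15, adjusted p = 0.0256, edgeR). The subunits of the rate-limiting ligase, Gclc and Gclm, had log2 fold changes of 0.27 ± 0.12 and 0.18 ± 0.09 (adjusted p = 0.173 and 0.242, edgeR), and neither passed under any alternative. Cth, which releases cysteine, had the wide value of 1.00 ± 0.32 (adjusted p = 0.097, edgeR). Of the 7 calls, 4 were left without vehicle mouse 2, without ISOGK mouse 2 or with library size scaling, which lost Gsr, Ahcy and Slc25a10. Gsr was also lost without vehicle mouse 2 and Ahcy without ISOGK mouse 2, Slc25a10 without vehicle mouse 1, 2 or 3 or ISOGK mouse 2, and Chac2 without the same 4 mice.

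The enzymes and pumps that act on the conjugates were called in both directions. Of 20 tested genes on a list of 24, 3 fell and 2 rose, beside 3.44% of all genes called lower and 4.11% called higher. Nat8f1, a relative of the acetyltransferase that finishes mercapturic acids, fell from 60.7 ± 8.88 to 32.3 ± 6.84 CPM (log2 fold change -0.91 ± 0.16, adjusted p = 0.0074, edgeR), Acy1, a deacetylase of acetylated amino acids, by -0.61 ± 0.13 (adjusted p = 0.0177, edgeR) and Abcc6, a pump of the multidrug resistance protein family, by -0.57 ± 0.13 (adjusted p = 0.023, edgeR). Nat8f2 and Nat8f5, other genes of the Nat8 family, rose by 0.46 ± 0.11 and 1.49 ± 0.37 (adjusted p = 0.0241 and 0.0313, edgeR), the latter from 0.798 to only 2.27 CPM. Acy3, Abcc5 and Abcg2 had the next smallest adjusted p, at 0.119, 0.139 and 0.146 (edgeR). Of the 5 calls, 3 were left without vehicle mouse 1, vehicle mouse 3 or ISOGK mouse 2, 2 were left without vehicle mouse 2 and 1 was left without vehicle mouse 4. Nat8f1 alone passed under all 16 alternatives.

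**Figure D5:**
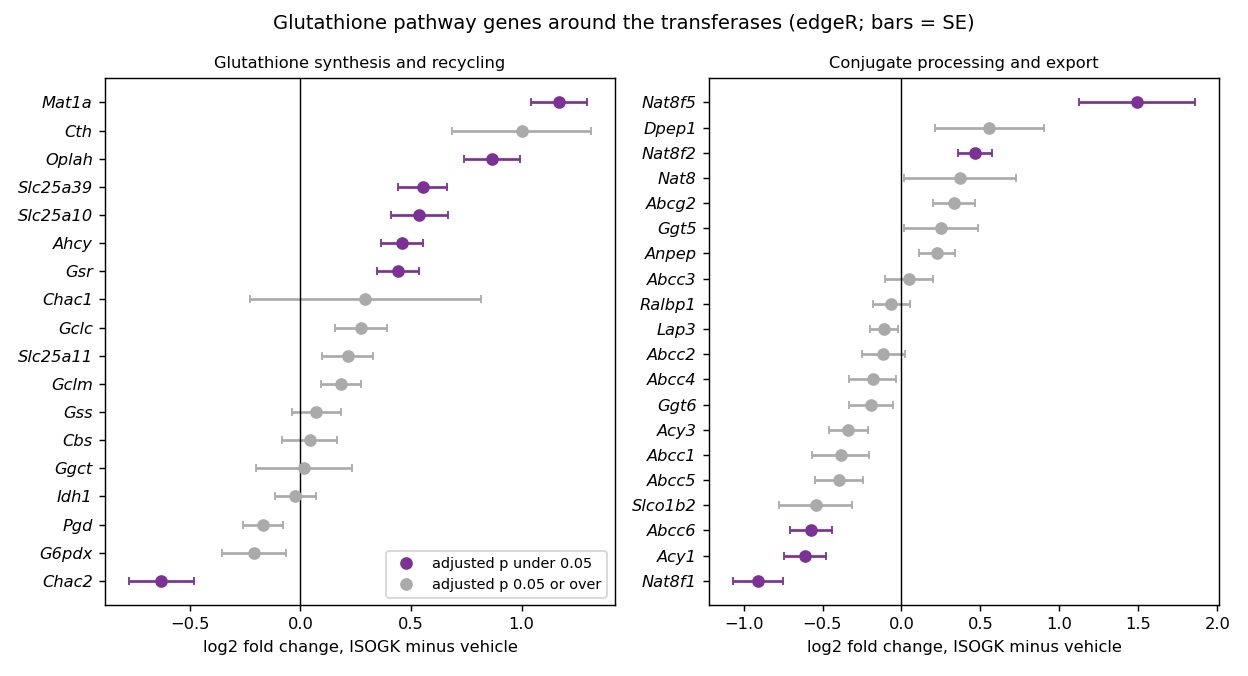
Log2 fold change (ISOGK minus vehicle, edgeR) with its SE for the 18 tested genes of glutathione synthesis and recycling (left) and the 20 tested genes of conjugate processing and export (right). Purple points passed an adjusted p of 0.05 and grey points did not, with 6 purple points above 0 and 1 below on the left, and 2 above and 3 below on the right.

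Of 18 transcriptional regulators of the family 1 passed, a share near the 7.55% of all genes called, and so no result about the regulators. It was Nr1i3, which encodes CAR, with a log2 fold change of 0.45 ± 0.12 (adjusted p = 0.0415, edgeR). That call was lost without any 1 vehicle mouse, without ISOGK mouse 3 or 4 and with library size scaling. Cebpa had -0.49 ± 0.15 and Keap1, the inhibitor of NRF2, 0.24 ± 0.12 (adjusted p = 0.0679 and 0.249, edgeR). Among 18 tested NRF2 targets outside the family, 5 rose and 0 fell, beside 4.11% and 3.44% of all genes, with Srxn1, a sulfiredoxin, at 1.01 ± 0.09 and Htatip2 at 0.66 ± 0.12 (adjusted p = 0.000121 and 0.0081, edgeR), beside Gsr. Only 2 of these passed without vehicle mouse 2 or with library size scaling, and 3 passed without vehicle mouse 1, 3 or 4 or ISOGK mouse 2. Of the 18 NRF2 targets, 14 had log2 fold changes above 0 and 4 below, with a median of 0.27. This list shares Gsr, Gclc, Gclm, Slc7a11 and G6pdx with the glutathione synthesis list, so the rise of Gsr is counted in both. It also shares Abcc4 with the export list. Nqo1 and Hmox1, chosen after their values were seen, had 0.09 ± 0.18 and -0.09 ± 0.13 (adjusted p = 0.799 and 0.725, edgeR). Among 17 tested CAR and PXR targets, 5 fell and 1 rose, beside the same shares. The cytochromes Cyp2b9 and Cyp2c29 fell by log2 fold changes of -4.07 ± 0.51 and -0.68 ± 0.13 (adjusted p = 0.0032 and 0.009, edgeR), and Cyp3a13 rose by 0.62 ± 0.14 (adjusted p = 0.0248, edgeR), a call lost without vehicle mouse 1, 3 or 4 or ISOGK mouse 2. Of the 17, 2 passed without vehicle mouse 1 or vehicle mouse 4 and 3 passed without vehicle mouse 2. Log2 fold changes were below 0 for 12 of the 17 CAR and PXR targets and above 0 for 5, with a median of -0.36. Cyp3a11 and Cyp2b10, chosen after their values were seen, had -0.71 ± 0.18 and -1.96 ± 0.53 (adjusted p = 0.036 and 0.0631, edgeR).

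Zone and sex patterns were read beside the family because its genes differ along both. Of all genes tested, 3.44% were called lower and 4.11% higher, beside which the counts of these short lists stand. Of 12 pericentral genes 3 fell (Cyp1a2 -0.48 ± 0.09, Rgn -0.40 ± 0.11 and Lect2 -0.47 ± 0.13, adjusted p = 0.0101, 0.0428 and 0.0444, edgeR) and 1 rose (Oat 0.57 ± 0.16, adjusted p = 0.0461, edgeR), while 8 of the 12 had log2 fold changes above 0, with a median of 0.04. Glul and Cyp2e1, the most used pericentral markers, had 0.05 ± 0.11 and 0.03 ± 0.11 (adjusted p = 0.836 and 0.9, edgeR), and Lgr5 had 0.57 ± 0.21 (adjusted p = 0.12, edgeR). Of 12 periportal genes 0 fell and 2 rose (Sdsl 1.69 ± 0.20 and Hal 0.58 ± 0.14, adjusted p = 0.0012 and 0.0305, edgeR), while Pck1 had 0.51 ± 0.15 (adjusted p = 0.0679, edgeR). The call of Rgn was kept only without ISOGK mouse 4 and that of Lect2 only without ISOGK mouse 2 among the 8 fits that left out a mouse, and Hal lost its call without vehicle mouse 1, 3 or 4 or ISOGK mouse 2 and with library size scaling. Of 5 tested female-biased genes 1 fell (Cyp2b9) and 1 rose (Cyp17a1, 1.85 ± 0.18, adjusted p = 0.000689, edgeR). Of 12 male-biased genes 0 fell and 2 rose (Ugt2b38 0.68 ± 0.12 and Cyp2d9 0.53 ± 0.15, adjusted p = 0.0065 and 0.0494, edgeR), the latter called in only 4 of the 16 alternatives and, of the fits without a mouse, only in that without ISOGK mouse 3, with Serpina1e at 0.48 ± 0.14 (adjusted p = 0.0512, edgeR). Of the 12 male-biased genes 10 had log2 fold changes above 0, with a median of 0.57. The 2 of opposite sign were Hsd3b5, the largest in size at -2.04 ± 0.54 with no overlap between the groups, and Slco1a1 at -0.79 ± 0.26 (adjusted p = 0.0708 and 0.11, edgeR). Oat, Glul, Cyp2e1, Lgr5, Hsd3b5 and Slco1a1 were chosen after their values were seen. The male-biased count was unstable, with 1 to 7 called in the fits without a mouse (7 without ISOGK mouse 3). DESeq2 called 10 male-biased genes, of which 2 were lower and 8 higher, beside 1435 of all 12307 genes. The pericentral count was 1 or 2 in every fit without a mouse. The periportal count was 1 without vehicle mouse 1, 3 or 4 or ISOGK mouse 2 and 4 without ISOGK mouse 4. The part of these patterns in the transferase values was not tested.

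Markers of other liver cells were measured in the same libraries, in which 7.55% of all genes tested passed. All 5 cholangiocyte markers (Krt7, Krt19, Epcam, Sox9 and Spp1), which mark bile duct cells, had higher means with ISOGK. Of them only Sox9 passed (log2 fold change 0.51, adjusted p = 0.0494, edgeR), a call that was lost without any 1 of the 8 mice. Without ISOGK mouse 4, 2 other markers passed. The 5 cholangiocyte markers summed to 27.5 to 34.8 CPM with vehicle and to 28.2 to 69.1 CPM with ISOGK. Kupffer cell markers (Clec4f, Vsig4, Adgre1, Timd4, Cd5l and Marco) summed to 924 to 1195 CPM and 733 to 958 CPM, with 5 of 6 lower and 0 passing. Stellate cell markers (Lrat, Reln, Des, Dcn, Col1a1 and Col3a1) summed to 268 to 374 CPM and 207 to 400 CPM. Endothelial markers (Stab2, Clec4g, Kdr, Pecam1, Lyve1 and Cdh5) summed to 313 to 336 CPM and 289 to 338 CPM, with 0 of 6 passing in either list. In each of the 4 lists with 0 calls by edgeR (hepatocyte, Kupffer, stellate and endothelial) 1 gene had an unadjusted p under 0.05, and DESeq2 called 1 gene in each but the endothelial list, while limma-voom called 0. No marker was at 0 in all libraries, and the part of these cells in the transferase values was not tested.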

How the data were processed

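Liver RNA of 8 mice, 4 per group, was sequenced single-end. The authors aligned reads with HISAT2 to an Ensembl mouse genome (mm10 per the labels) and obtained raw counts with StringTie. The table they deposited lists these counts as whole numbers for each gene symbol, and no normalization had been applied. How reads with several matches or strand were treated is not given in the sources used here, and counting errors of reads without molecular identifiers are not errors between mice. Groups came from the sample titles, with the DMSO columns taken as vehicle.

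Genes were filtered with filterByExpr (minimum count 10, minimum total 15), which kept 12307 of 16540, scaled with TMM and tested with the robust quasi-likelihood test of edgeR 4.0.16 in R 4.3.3, with Benjamini-Hochberg adjustment over all genes tested and a threshold of 0.05. Fold changes are the log2 estimates of each test. A prior count of 2 applied only to log2 CPM. Each SE is the size of the log2 fold change over the square root of edgeR's quasi-likelihood F statistic. The dispersion in that statistic is moderated over all genes tested. CPM per kilobase used the union of coding-transcript exons in GENCODE M21, in which all 29 superfamily symbols matched. Alternatives were DESeq2 1.42.0, limma-voom (limma 3.58.1), DESeq2's size factors, library size alone, 2 other filters, the test with its robust option off, a block on the replicate number, and each mouse left out. Sequences were aligned with Biopython 1.88. The test was tested on simulated data.

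The 10 genes and all lists were chosen with earlier results of these data known. Named were the 10 genes, every tested superfamily row, all called genes of both glutathione lists with up to 3 others by smallest adjusted p, and up to 3 genes of each other list, of which 1 is not reported here. Cell type markers are named as fixed lists, with the value of the 1 that passed.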

Additional observations from a re-analysis of the deposited data

Results flagged for a closer look

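In 2 of 50 groups of 4 libraries examined over the superfamily rows, 1 library stood apart from the other 3 by Dixon's ratio of the gap to the range, taken on log2 CPM, at its 95% critical value, and chance alone gives about 1 group in 20. Gstm1 in ISOGK mouse 4 was at 760.2 CPM, above the 610.0 to 631 CPM of the other ISOGK mice (ratio 0.843). Gstz1 in ISOGK mouse 3 was at 471 CPM, below the 628 to 652 CPM of the others (ratio 0.886).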

How the results depend on the processing

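The signs of all 10 transferase fold changes were kept in all 16 alternatives, and their median lay between -0.60 and -0.41. Library size scaling moved the median of all genes to -0.13 and turned the calls over all genes from 423 lower and 506 higher to 804 lower and 262 higher, and it left 7 of the 10 called, all lower, and 4 of the glutathione synthesis and recycling list. Leaving out each mouse gave 2 to 5 calls among the 10 genes, 2 to 5 among the other superfamily rows, 4 to 7 for glutathione synthesis and recycling, 1 to 6 for conjugate processing and export, 379 to 1235 over all genes (929 with all mice) and 123 to 250 with an absolute log2 fold change over 1 (200 with all mice). DESeq2 called 1435 genes. The sample titles do not say whether the replicate numbers pair the mice. Deviations of same-numbered mice correlated at 0.013, -0.0144, 0.0754 and 0.0849, and those of other pairs at -0.207 to 0.219. With so few mice such values cannot exclude a weak pairing. With the replicate block 7 of the 10, 4 of the other superfamily rows and 8 and 6 genes of the glutathione lists passed. Over all genes 827 passed, and 170 with the fold criterion. The cause of these shifts was not tested. Gstm2, Gstm4, Gsta2 and Gstt1 did not pass with all 8 mice, which does not show that they did not differ, and Gstp1 and Gsta2 counts depend on reads shared with close copies.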
